A study of Mus musculus with 6 samples.

Results

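The cytokines of the IL-6, IL-10 and IL-12 families measured here are 10 genes chosen by their symbols: Il6, Osm, Lif, Clcf1, Il12a, Il12b, Il23a, Il27, Ebi3 and Il10. All 10 were found among the 56832 gene symbols of the count tables. Their RNA was measured by sequencing of polyadenylated RNA from cells that the labels call monocytes from mouse peripheral blood. Thrombocytopenic mice (3 libraries) were of the genotype PF4cre-iDTR, and control mice (3 libraries) were WT. Diphtheria toxin is given as the treatment of both groups, and the labels give no age, strain, sex or time after the toxin. In PF4cre-iDTR mice, Cre recombinase under the promoter of Pf4, active in megakaryocytes, switches on a receptor through which the toxin kills the cell. Activity of that promoter in monocytes was not tested, and the level of Pf4 RNA is given below. Genotype and platelet state cannot be told apart. The labels do not tie libraries to separate mice, and the p-values therefore describe only library-to-library spread, possibly technical. Beyond counting error, edgeR put that spread at 2.68% of a gene's level, as a value common to all tested genes.

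Libraries held 29883019 to 37552029 counts in the thrombocytopenic group and 24842319 to 35955383 in the control group. All 9 monocyte markers were tested: 6 were higher, among them Lyz2, Csf1r and Cd14, and 3 lower, namely Cx3cr1 (log2 fold change -2.19), Ly6c2 (-0.49) and Fcgr1 (-0.34). Of 7 macrophage markers 2 were higher (Adgre1 and Mrc1). The other 5 were lower on the log2 scale: Mertk (-1.51), C1qa (-0.71), C1qc (-0.51), C1qb (-0.41) and Cd68 (-0.30). All 7 summed to 4571 to 4792 CPM (counts per 1000000 counts of the library) in thrombocytopenic and 4305 to 4482 CPM in control libraries. Most of that sum was Adgre1, at a mean of 3285 CPM in thrombocytopenic and 2712 CPM in control libraries. The haemoglobin gene Hba-a1 had 0 counts in each thrombocytopenic library, against 55, 62 and 63 in control libraries. Of 8 platelet markers 5 were tested, with 2 higher (Pf4 and Ppbp) and 3 lower. Pf4 averaged 1095 CPM in thrombocytopenic and 924 CPM in control libraries, and Ppbp 151 and 95.2 CPM. Among the lower ones Gp9 had 0 counts in each thrombocytopenic library against 9, 17 and 15 counts in the control libraries. Itga2b and Itgb3, also lower, averaged 0.343 and 0.759 CPM in thrombocytopenic and 0.863 and 1.44 CPM in control libraries. Which cells the Pf4 RNA came from was not tested. Of 7 T and NK cell markers, 5 had no count in any library. The summed level of 5 B cell markers was 1.04 to 1.67 CPM in thrombocytopenic libraries and 1.22 to 1.77 CPM in control libraries. Dendritic cell markers summed to 15.6 to 18.5 CPM in thrombocytopenic libraries and 31.4 to 35.3 CPM in control libraries, most of it from Ccr7. Basophil and mast cell markers stood at 0.186 to 0.301 CPM in thrombocytopenic libraries and 5.44 to 7.40 CPM in control libraries.

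These cytokines are helical proteins that myeloid cells release after sensing microbes or damage, and they signal through JAK kinases and STAT factors. Members of the IL-6 family share the receptor chain gp130, encoded by Il6st. The IL-12 family consists of paired chains: IL-12 is made of p35 (Il12a) and p40 (Il12b), IL-23 of p19 (Il23a) and p40, IL-27 of p28 (Il27) and EBI3, and IL-35 of p35 and EBI3. IL-10 restrains macrophages and monocytes, and among its known effects is to lower their output of IL-6 and IL-12.

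Of the 10 genes, 9 had enough counts to be tested. Il6, Ebi3, Il10 and Il27 were higher in the thrombocytopenic libraries, Osm, Lif and Il12b were lower, and Il12a and Clcf1 did not pass the test. Il23a was too low to test. The 7 calls out of 9 stand against a background of 45.1% of all 12488 tested genes at an adjusted p under 0.05 by edgeR's quasi-likelihood test, 22.4% higher and 22.7% lower. Groups did not overlap for the same number of members, 7 of 9, against 51.3% of all tested genes. The median log2 fold change of the 9 genes was 0.09, against -0.00077 over all tested genes, and the median of its absolute value was 0.39 against 0.15. In bulk RNA, fewer cells of a type and less RNA per cell cannot be told apart.

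**Figure D1:**
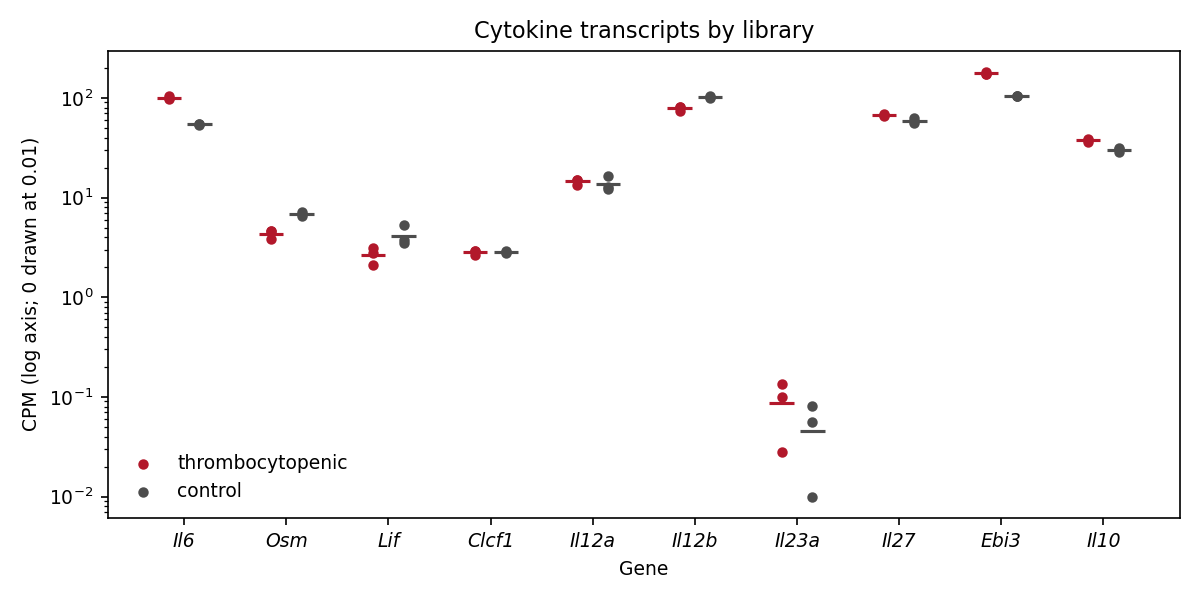
Level of each cytokine gene in every library as CPM on a log axis, with thrombocytopenic libraries in red left of control libraries in grey and a short line at each group mean. Il6, Ebi3, Il10 and Il27 are higher and Il12b, Osm and Lif lower in thrombocytopenic libraries without overlap, while the groups overlap for Il12a, Clcf1 and Il23a.

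Il6 (chr5:30013114-30019981, plus strand; GENCODE M21, GRCm38) encodes interleukin 6, the founding member of its family and a driver of fever and the acute-phase response. It was at 103, 97.1 and 98.7 CPM in thrombocytopenic libraries, against 55.1, 53.0 and 55.1 CPM in control libraries. Every thrombocytopenic library was well above every control library, and the spread within each group was small. The means were 99.7 ± 3.29 CPM and 54.4 ± 1.19 CPM (SD, n = 3 each), a log2 fold change of 0.88 (SE 0.037; 95% interval 0.80 to 0.95; edgeR adjusted p = 2.65e-27), or 1.84-fold.

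Osm (chr11:4236420-4241026, plus strand) encodes oncostatin M, a gp130 cytokine of activated myeloid cells that acts on liver and stromal cells. Its level was 4.58, 4.63 and 3.80 CPM in thrombocytopenic libraries, against 6.59, 6.83 and 7.11 CPM in control libraries. The groups were apart, and thrombocytopenic replicate 3 was the lowest of the 6. On the log2 scale Osm fell by 0.66 (SE 0.11; edgeR adjusted p = 7.59e-07). Neutrophils are another known source of oncostatin M: their 10 markers summed to 165 to 173 CPM in thrombocytopenic libraries and 154 to 157 CPM in control libraries, with 1 of 6 tested markers higher and 1 lower (Ngp). Most of that sum was the higher marker, Csf3r, which monocytes also express; the other 9 markers summed to 9.57 to 14.3 CPM in thrombocytopenic and 13.5 to 15.3 CPM in control libraries. Their part in the result was not tested.

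Lif, the neighbour of Osm (chr11:4257557-4272514, plus strand), encodes leukaemia inhibitory factor, which signals through gp130 and the chain encoded by Lifr. It was at 2.12, 3.08 and 2.77 CPM in thrombocytopenic libraries, from 79, 92 and 99 counts, against 5.26, 3.72 and 3.49 CPM in control libraries, from 131, 134 and 100 counts. The groups did not overlap, but control replicate 1 stood above the other two control libraries. The log2 fold change was -0.64 (SE 0.15; edgeR adjusted p = 0.000678), and -0.46 without control replicate 1 (adjusted p = 0.0187; range over all alternatives 5.93e-05 to 0.0187).

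Clcf1 (chr19:4214238-4223490, plus strand) encodes cardiotrophin-like cytokine factor 1, a gp130 cytokine. The thrombocytopenic libraries held 2.63, 2.92 and 2.91 CPM and the control libraries 2.81, 2.81 and 2.93 CPM. The groups overlapped, and the log2 fold change of -0.019 had a 95% interval of -0.31 to 0.28 (edgeR adjusted p = 0.934). In GENCODE M21, 311 of its 3806 exonic bases are shared with AC109138.7 on the same strand. That symbol was not among those of the count tables, so whether the overlap affected the count of Clcf1 is unknown.

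Il12b (chr11:44400063-44414033, plus strand) encodes p40, the chain common to IL-12 and IL-23. It was at 80.7, 81.6 and 73.5 CPM in thrombocytopenic libraries, against 103, 105 and 101 CPM in control libraries. All thrombocytopenic libraries were below all control libraries, with means of 78.6 ± 4.47 CPM and 102.7 ± 1.99 CPM (SD, n = 3 each). The log2 fold change was -0.39 (SE 0.036; edgeR adjusted p = 1.87e-13), a level 23.6% lower. Dendritic cells are a known source of p40. Of their 7 markers 5 were tested in the same libraries, with 4 lower and none higher. Most of their summed level was Ccr7, which averaged 15.2 CPM in thrombocytopenic and 28.0 CPM in control libraries. Flt3, the next highest, averaged 0.695 CPM in thrombocytopenic and 1.71 CPM in control libraries. Which cells the Ccr7 RNA came from was not tested, nor was the part of dendritic cells in the result.

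Il12a (chr3:68690644-68698547, plus strand) encodes p35, the partner of p40 in IL-12. Its level was 15.2, 15.1 and 13.4 CPM in thrombocytopenic libraries and 16.5, 12.2 and 12.8 CPM in control libraries. Control replicate 1 held the highest level and the other two control libraries the lowest, so the groups overlapped. The log2 fold change was 0.090 (SE 0.088; 95% interval -0.092 to 0.27; edgeR adjusted p = 0.44). Without control replicate 1 it was 0.22 and passed the test (adjusted p = 0.022; range over all alternatives 0.022 to 0.966), which brought the members called higher to 5. Without control replicate 2 it was -0.0062.

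Il23a (chr10:128296139-128298752, minus strand), which encodes the p19 chain of IL-23, had 5, 3 and 1 counts in thrombocytopenic libraries and 2, 2 and 0 counts in control libraries. The summed counts were 9 and 4, a ratio of 1.96 (95% counting interval 0.547 to 8.70, which covers counting error only). A difference was not detectable at this depth.

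Ebi3 (chr17:55952640-55957022, plus strand) encodes the chain shared by IL-27 and IL-35. It was at 172, 182 and 175 CPM in thrombocytopenic libraries, against 103, 104 and 104 CPM in control libraries. The control libraries were nearly equal, and all thrombocytopenic libraries lay above them. Means were 176 ± 5.02 CPM and 103.9 ± 0.522 CPM (SD, n = 3 each), a log2 fold change of 0.76 (SE 0.031; 95% interval 0.70 to 0.82; edgeR adjusted p = 6.2e-28), or 1.70-fold. In GENCODE M21 the antisense gene Gm16712 shares 270 of the 1154 exonic bases of Ebi3. Gm16712 had 17 to 30 counts in thrombocytopenic libraries and 16 to 28 in control libraries, whereas Ebi3 had at least 2575 in every library. Since the strand setting of the counting is unknown, reads of that stretch are uncertain for Ebi3 whatever the count of Gm16712.

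Il27 (chr7:126589010-126594941, minus strand) encodes p28, the partner of EBI3 in IL-27. The thrombocytopenic libraries held 66.4, 69.7 and 66.8 CPM, against 62.7, 56.5 and 58.4 CPM in the control libraries. The groups were apart by a small margin. Its log2 fold change was 0.20 (SE 0.040; edgeR adjusted p = 4.45e-05), or 14.5% higher. Apobr, on the opposite strand, shares 103 of the 1021 exonic bases of Il27 and was itself higher, at 264 ± 13.3 CPM against 215 ± 7.16 CPM (log2 fold change 0.29). The strand setting of the counting is unknown, so reads of that stretch are uncertain for both genes.

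Il10 (chr1:131019845-131024974, plus strand) encodes interleukin 10. It was at 38.2, 36.5 and 38.7 CPM in thrombocytopenic libraries, against 31.2, 28.7 and 30.4 CPM in control libraries. The groups did not overlap, and the means were 37.8 ± 1.15 CPM and 30.1 ± 1.27 CPM (SD, n = 3 each). The log2 fold change was 0.33 (SE 0.048; 95% interval 0.24 to 0.43; edgeR adjusted p = 5.93e-08), or 26.1% higher.

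**Figure D2:**
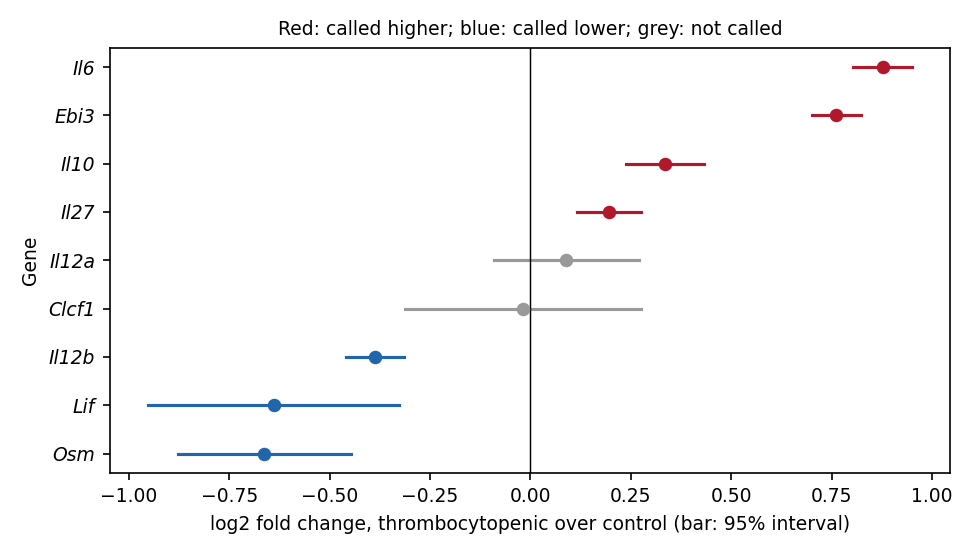
Log2 fold change, thrombocytopenic over control, of the 9 tested cytokine genes, with the 95% interval as a bar. Il6 (0.88) and Ebi3 (0.76) lie farthest to the right, Osm (-0.66) and Lif (-0.64) farthest to the left with the widest intervals among the called genes, and the intervals of Il12a and Clcf1 include 0.

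The stretch before the start site is shown for the 2 genes that rose most, Il6 and Ebi3, and for Il12b and Lif, which fell. It was taken from RefSeq windows (GRCm38.p6, plus strand, 250 bases up to the start site), which were matched for 5 of the 10 genes; the fifth is Il12a. Capitals mark matches on either strand to 6 motifs: AP-1 (TGANTCA), C/EBP (TTGNNNAA), CRE (GACGTCA), STAT (TTCNNNGAA), and the ISRE and NF-kB consensus motifs, given by name.
Il6 at chr5:30012864-30013113: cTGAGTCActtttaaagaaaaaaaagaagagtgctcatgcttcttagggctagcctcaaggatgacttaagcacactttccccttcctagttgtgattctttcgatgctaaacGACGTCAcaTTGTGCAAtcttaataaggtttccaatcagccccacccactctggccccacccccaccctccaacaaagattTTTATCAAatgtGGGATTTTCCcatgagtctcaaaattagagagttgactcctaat
Ebi3 at chr17:55952373-55952622: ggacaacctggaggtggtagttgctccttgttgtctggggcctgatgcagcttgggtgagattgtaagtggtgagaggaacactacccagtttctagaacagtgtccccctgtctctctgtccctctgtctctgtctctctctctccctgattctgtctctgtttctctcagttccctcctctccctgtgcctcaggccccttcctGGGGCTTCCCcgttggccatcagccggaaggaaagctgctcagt
Il12b at chr11:44399813-44400062: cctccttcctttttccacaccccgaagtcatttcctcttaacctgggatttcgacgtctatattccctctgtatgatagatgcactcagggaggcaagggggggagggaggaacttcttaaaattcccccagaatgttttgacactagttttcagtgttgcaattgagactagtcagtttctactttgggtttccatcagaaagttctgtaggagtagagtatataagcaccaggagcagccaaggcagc
Lif at chr11:4257318-4257567: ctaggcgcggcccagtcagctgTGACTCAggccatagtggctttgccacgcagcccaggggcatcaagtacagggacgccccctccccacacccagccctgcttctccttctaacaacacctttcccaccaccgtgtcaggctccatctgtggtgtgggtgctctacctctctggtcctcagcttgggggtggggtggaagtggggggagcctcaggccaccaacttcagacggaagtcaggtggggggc
The windows of Il6 and Ebi3 each held 1 NF-kB match, GGGATTTTCC in Il6 and GGGGCTTCCC in Ebi3, both at bases -44 to -35 from the start site. That motif was in 3.9% of 32817 RefSeq windows of the same length. Il6 also held an AP-1 match (TGAGTCA, at -249; 6.75% of windows), a CRE match (GACGTCA, at -137; 2.78%) and C/EBP matches at -128 and -56 (33.3%). None of the matches overlapped. The window of Lif had an AP-1 match (TGACTCA, at -228), and neither the Il12b window nor the Il12a windows held any of these letters. STAT letters were in 7.01% and ISRE letters in 2.97% of windows, and in none of those of the 5 genes. A match describes letters and is not a measured site. A window without a match may still hold a site whose letters differ from these motifs.

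Ratios of paired transcripts within a library do not depend on scaling between libraries. Of 6 planned pairs, 5 had at least 10 counts of both genes in every library, and the pair of Il12b with Il23a did not. The ratio of Il6 to Il10 counts was 2.71, 2.66 and 2.55 in thrombocytopenic libraries, against 1.77, 1.85 and 1.81 in control libraries. Il6 thus differed more between the groups than Il10, by 0.55 on the log2 scale. The ratio of Il12b to Il12a, the chains of IL-12, was 5.32, 5.39 and 5.50 in thrombocytopenic libraries, against 6.23, 8.59 and 7.85 in control libraries (log2 difference -0.47). Il27 to Ebi3, the chains of IL-27, stood at 0.386, 0.383 and 0.382 in thrombocytopenic libraries, against 0.606, 0.545 and 0.559 in control libraries. That log2 difference of -0.57 came with almost no spread among thrombocytopenic libraries. The ratio of Il12a to Ebi3, the chains of IL-35, was 0.0881, 0.0833 and 0.0764 in thrombocytopenic libraries and 0.159, 0.118 and 0.123 in control libraries (log2 difference -0.68). In these 4 pairs the groups did not overlap, and each had an exact permutation p of 0.1, two-sided, the smallest that 3 against 3 libraries can give (0.125 adjusted over the 5 pairs). Osm to Lif ranged from 1.37 to 2.16 in thrombocytopenic libraries and from 1.25 to 2.04 in control libraries, and did not separate the groups (log2 difference -0.024, exact permutation p = 1).

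**Figure D3:**
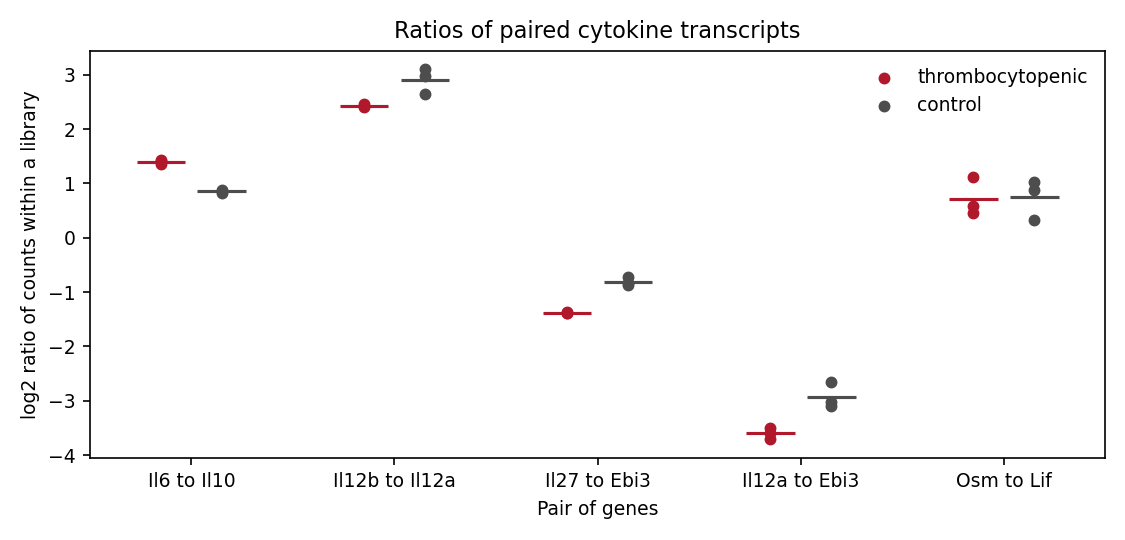
Log2 ratio of the counts of paired genes within each library, with thrombocytopenic libraries in red left of control libraries in grey and a line at each group mean. The groups are apart for 4 pairs, with log2 differences of 0.55, -0.47, -0.57 and -0.68, and overlap for Osm to Lif.

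Levels between genes were compared as CPM per kilobase of merged exons in GENCODE M21. In thrombocytopenic libraries Ebi3 came first at 153 ± 4.35 CPM per kilobase, followed by Il27 at 66.3 ± 1.75, Il6 at 41.1 ± 1.35 and Il12b at 39.95 ± 2.27. In control libraries the order was Ebi3 at 90.0 ± 0.453 CPM per kilobase, Il27 at 58.0 ± 3.10, Il12b at 52.2 ± 1.01, Il10 at 23.0 ± 0.972 and Il6 at 22.4 ± 0.490 (SD, n = 3 each). Il6 and Il12b overlapped in the thrombocytopenic group, while Il6 and Il10 overlapped in the control group. Il10 followed at 28.8 CPM per kilobase in thrombocytopenic libraries. Il12a was at 8.56 CPM per kilobase in thrombocytopenic libraries and 8.13 in control libraries, and Osm at 1.91 and 3.01 in the same order. Clcf1 at 0.740 and Lif at 0.611 CPM per kilobase overlapped in the thrombocytopenic group, while in control libraries Lif at 0.956 lay above Clcf1 at 0.749. Il23a was last in both groups. Among the 12054 tested genes with a single exon length, the level of Ebi3 lay above 97.4% in thrombocytopenic and 95.7% in control libraries. Il6 lay above 90.4% of genes in thrombocytopenic libraries and 82.9% in control libraries.

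The genes whose profile was most like that of Il6 were Tfec, Fam43a, Nxpe3, Itgb8 and Hp. Likeness was the root mean square distance of log2 CPM, centred on each gene's mean, over the 6 libraries and 10305 genes of at least 1 CPM. The distances were 0.030 to 0.035, and log2 fold changes of these genes ran from 0.82 to 0.92. For Il10 they were Tmem168, Snx20, Gnl3, Pcdh7 and Cxcl3, at distances of 0.020 to 0.027 and log2 fold changes of 0.32 to 0.35. With 2 groups, such likeness largely follows the difference between the groups.

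Receptor genes of the same families moved in both directions: 9 of 12 were tested, 2 were higher, 3 lower and 4 did not pass, with a median log2 fold change of 0.018. Il10ra, the ligand-binding chain of the IL-10 receptor, was at 241 ± 0.827 CPM against 205 ± 1.13 CPM (SD, n = 3 each; log2 fold change 0.24, edgeR adjusted p = 1.66e-10). Its second chain, Il10rb, fell by 0.15 on the log2 scale, at 133 CPM in thrombocytopenic and 147 CPM in control libraries. Il6ra, the IL-6 binding chain, had 52.0, 51.1 and 49.9 CPM in thrombocytopenic libraries, against 62.1, 62.6 and 58.5 CPM in control libraries (log2 fold change -0.26, SE 0.040). For the gp130 gene Il6st the means were 29.6 ± 1.19 CPM in thrombocytopenic and 29.3 ± 0.428 CPM in control libraries, which did not pass (95% interval of the log2 fold change -0.083 to 0.12). Lifr rose by 0.42 from a low level (2.46 CPM against 1.85 CPM; edgeR adjusted p = 0.0414). Il11ra1, the IL-11 receptor chain, had a log2 fold change of -0.38. Osmr, the oncostatin M receptor chain, had at most 2 counts in any library, and Il12rb1 at most 12. Of 10 further ligands of these families only Il19, an IL-10 relative, was tested, at 0.881 CPM against 0.651 CPM (log2 fold change 0.42, edgeR adjusted p = 0.253), and 5 had no count in any library.

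Among 13 genes of JAK kinases, STAT factors and feedback inhibitors, 4 were higher, 5 lower and 4 did not pass, with a median log2 fold change of -0.025. Socs3, the inhibitor that binds gp130 and limits IL-6 signalling, was at 714, 683 and 702 CPM in thrombocytopenic libraries, against 517, 521 and 491 CPM in control libraries (log2 fold change 0.46, SE 0.026; edgeR adjusted p = 1.65e-21). The phosphatase gene Ptpn6 rose by 0.42. The kinase gene Jak2 had a log2 fold change of -0.23. Stat3, the main STAT of IL-6 and IL-10, was at 213 ± 5.08 CPM against 217 ± 1.85 CPM, with a 95% interval of -0.082 to 0.031 for the log2 fold change.

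Transcription factors known to act on these cytokine genes were higher in 7 of 17 tested members and lower in 5 (median 0.058). Nfkbiz, the nuclear I-kappa-B protein needed for Il6 and Il12b induction in mouse macrophages, was at 726, 727 and 702 CPM in thrombocytopenic libraries, against 420, 411 and 423 CPM in control libraries (log2 fold change 0.78, SE 0.025). Cebpd, a C/EBP factor, rose by 0.95 and Rel, the NF-kB subunit required for Il12b in mouse macrophages, by 0.54. Atf3, a factor that restrains Il6 and Il12b in mouse macrophages, had a log2 fold change of -0.37. Irf8, which takes part in Il12b induction in mice and was named after its value was seen, was at 109 ± 4.35 CPM against 143 ± 0.568 CPM (-0.40). Maf, an activator of Il10 in mice and chosen in the same way, had a log2 fold change of 0.25.

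The 11 genes of the list on RNA-binding regulators of cytokine transcripts were all tested, with 6 higher and 3 lower (median 0.13). Zfp36l2, whose protein promotes decay of AU-rich transcripts, was at 10.3, 11.4 and 10.9 CPM in thrombocytopenic libraries, against 26.6, 26.6 and 25.6 CPM in control libraries (log2 fold change -1.28, SE 0.063). Zc3h12c, a relative of the Il6-degrading nuclease Regnase-1, rose by 0.45, and Rc3h1, encoding Roquin-1, by 0.17. Tnfaip3 rose by 0.33; its product A20 is a ubiquitin-editing inhibitor of NF-kB and no RNA-binding protein. Zc3h12a, encoding Regnase-1 itself and named after its value was seen, averaged 219 CPM in thrombocytopenic and 211 CPM in control libraries and did not pass (edgeR adjusted p = 0.105).

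Of 8 genes that IL-10 is known to induce in macrophages, 4 were higher, 3 lower and 1 did not pass (median 0.038). Bcl3, a nuclear I-kappa-B protein, rose by 0.38 and Socs3 is a member with the values above. Il1rn, the IL-1 receptor antagonist gene, averaged 527 ± 23.7 CPM in thrombocytopenic and 826 ± 17.5 CPM in control libraries (SD, n = 3 each), a log2 fold change of -0.65. Fcgr1, which encodes an IgG receptor, fell by 0.34 on the log2 scale. The shares of called genes in these lists stand beside the 45.1% of all tested genes, and nothing particular to the lists is read from them.

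**Figure D4:**
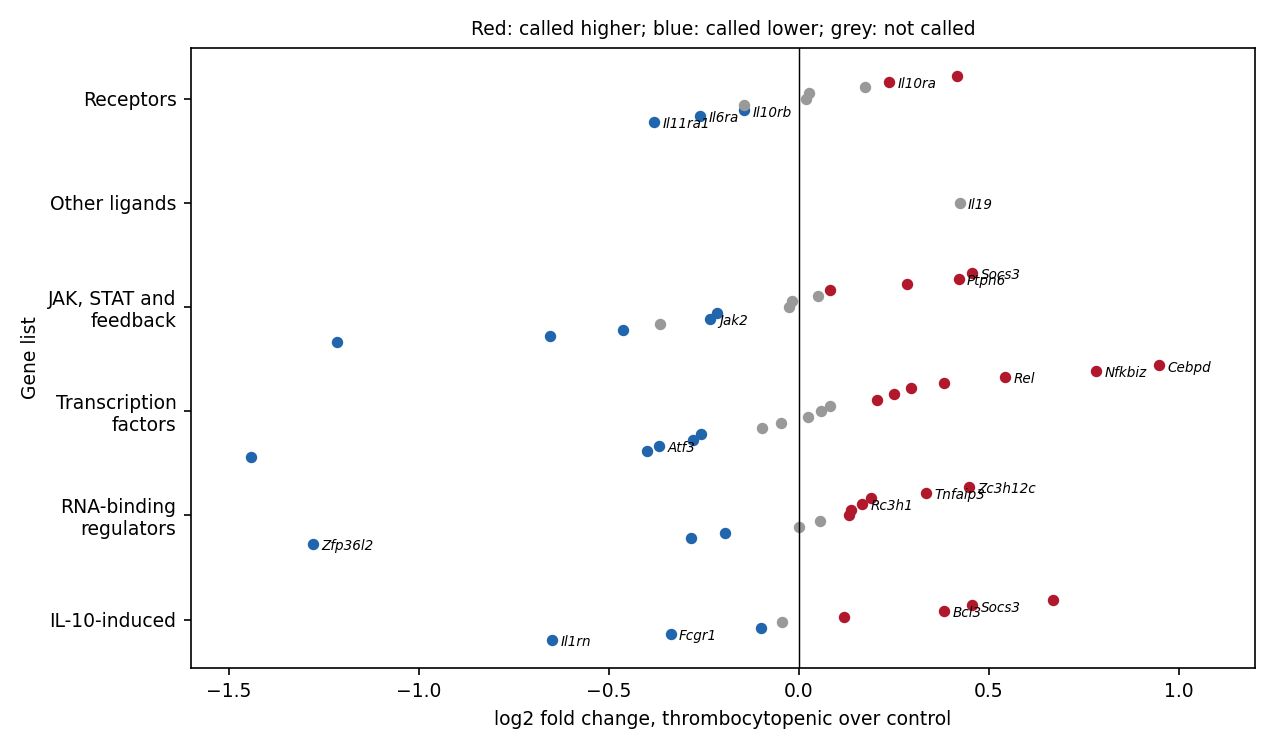
Log2 fold change, thrombocytopenic over control, of each tested gene in the 6 pathway lists, 1 row per list, with up to 4 genes of smallest p named. Called genes lie on both sides of 0 in 5 of the lists, and the list of other ligands holds a single tested gene, Il19, which was not called.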

How the data were processed

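Polyadenylated RNA was selected on oligo-dT beads and made into strand-marked (dUTP) libraries, per the labels' protocols. The authors deposited unnormalized whole-number counts, 1 file per library. Salmon 1.5.2, featureCounts (Subread 2.0.1), STAR 2.7.9a and fastp 0.23.1 are named in the submitters' processing notes without roles; build, annotation and strand setting: not given in the sources used here.

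Counts were analysed with R 4.3.3 and edgeR 4.0.16: filterByExpr (minimum count 10, minimum total 15), TMM scaling, robust quasi-likelihood test, two-sided, group as the only term, Benjamini-Hochberg adjustment over 12488 genes, threshold 0.05. SE is the size of the log2 change over the root of F. CPM values of single genes are TMM-scaled; marker sums use library totals. Genes with few counts are limited by depth. Exon lengths and loci come from GENCODE M21 (GRCm38), whose match to the authors' annotation is unknown. Steps were tested on simulated data.

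The members and lists were chosen with earlier results of these data known, and the promoter motifs afterwards. Named genes are the members, up to 4 tested genes of smallest p per list, and the 5 genes most like Il6 and Il10; others are marked. A gene that meets this rule is not reported here. Alternatives were RLE and library total scaling, no low-count filter, DESeq2 1.42.0, a replicate block and leaving out each library.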

Additional observations from a re-analysis of the deposited data

How the results depend on the processing

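All 7 called members kept their direction and their side of the threshold under the 11 alternatives run. Because the groups did not overlap for these members, leaving out a library could not by itself turn the direction. Log2 fold changes were 0.85 to 0.90 for Il6, 0.74 to 0.78 for Ebi3, 0.29 to 0.36 for Il10 and 0.16 to 0.23 for Il27. They were -0.41 to -0.34 for Il12b, -0.71 to -0.57 for Osm and -0.75 to -0.46 for Lif. Of the 2 members not called, Il12a was called without control replicate 1 (0.2177) and turned to -0.0062 without control replicate 2, while Clcf1 ranged from -0.044 (without thrombocytopenic replicate 3) to 0.0327 (without thrombocytopenic replicate 1); the cause was not tested. The number of genes called, 5626, lay between 4720 (DESeq2) and 5645 (RLE scaling). When each library was left out in turn it was 4990 to 5427, with 4 to 5 members higher and 3 lower. Same-numbered libraries of both groups did not deviate together across genes (r of -0.0354, -0.0725 and -3.86e-05). No pairing by number was thus detected, but with 3 libraries per group a weak one could go unseen. With a replicate block 5402 genes were called, with 4 members higher and 3 lower. The 4 pair ratios that separated the groups kept their sign with each library left out, which was bound to happen because their groups did not overlap. Their log2 differences were 0.53 to 0.57 (Il6 to Il10), -0.60 to -0.37 (Il12b to Il12a), -0.60 to -0.52 (Il27 to Ebi3) and -0.76 to -0.54 (Il12a to Ebi3). Osm to Lif took both signs (-0.23 to 0.12). The shifts from leaving out a library, and those with 0.5 added to the counts, were smaller than the larger of both groups' SDs. For a left-out library that outcome was fixed, since it cannot move a group mean by as much as the group's SD. For the 3 pairs of IL-12 family chains some shifts exceeded the smaller, thrombocytopenic SD. A replicate block cannot change these differences of means. Depth limits Il23a, with 9 and 4 counts in the thrombocytopenic and control groups, and gives Lif, Clcf1 and Osm wider intervals than the more abundant members.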
